A study of Mus musculus with 12 samples.

Results

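The comparison described here sets 1 Th17 library against 3 wild-type (WT) induced regulatory T cell (iTreg) libraries, which are 4 of the 12 samples of a mouse study of the transcriptional repressor Bach2. All 4 were labelled as RNA of C57BL/6J CD4+ T cells, wild type, sorted as naive cells (including CD44- and CD25-) from spleen and lymph nodes and stimulated for 3 days on plates coated with anti-CD3 and anti-CD28 (10 µg/ml each). The Th17 culture received IL-6 (20 ng/ml), human TGF-β1 (2 ng/ml) and neutralizing antibodies to IFN-γ and IL-4 (10 µg/ml each). The iTreg cultures received IL-2 (100 IU/ml) and human TGF-β1 (5 ng/ml), with no neutralizing antibody listed. Both conditions thus contained TGF-β1, and they differed in its dose, in the second cytokine and in the neutralizing antibodies, whose parts in any difference cannot be told apart. Single libraries of Th1, Th2 and fresh naive cells and 3 libraries of Bach2-deficient (Bach2KO) iTreg cells are cited where they place a value. The labels do not say whether the replicates were separate animals or cultures, so their spread may be technical. They name neither the age nor the sex of the mice, and they give the same run date for all 12 samples.

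A locus was called higher or lower when its log2(FPKM + 0.5) in the Th17 library lay at least 1 (2-fold) above or below each of the 3 WT iTreg libraries, and 11241 of the 23700 loci in the files (at least 300 bp long, at least 0.5 FPKM on average) entered the comparison. FPKM is a count of fragments scaled to transcript length and to library size. Because the Th17 condition has a single library, its own variation is unknown, and an exact permutation test of 1 library against 3 cannot give a two-sided p below 0.25. Adjusted p-values below come from limma with Benjamini-Hochberg adjustment over all tested loci, where the Th17 library is assumed to vary like the iTreg libraries. That spread, and so each standard error, was taken from the WT and Bach2KO iTreg groups together, with 3 libraries each. In bulk RNA, fewer cells that express a gene and less RNA per cell cannot be told apart.

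Th17 and iTreg cells share a developmental fork. TGF-β signals through Smad proteins and induces Foxp3, the factor that defines regulatory T cells, while IL-6 acts through gp130 and Stat3 to induce the IL-17 cytokines. IL-2 acts through Stat5, which is known to favour Foxp3 and to limit IL-17.

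The libraries also differed in sex-linked genes and in markers of other cell types. Xist, the RNA that coats the inactive X chromosome of female cells, was at 90.4 FPKM in the Th17 library and below 0.01 FPKM in each WT iTreg library. Among Y-linked genes, Eif2s3y was listed at 0 in the Th17 library, against 68.9, 55.6 and 62.6 FPKM in WT iTreg cells, and Ddx3y, Kdm5d and Uty were at most 0.0116 FPKM in the Th17 library, against 4.67 to 19.0 FPKM in WT iTreg cells. The Th1, Th2 and naive libraries held Xist as well, between 48.7 and 156 FPKM, and the Bach2KO iTreg libraries did not. Sex of the source cells and culture condition therefore cannot be told apart in this comparison. Of the 368 tested X loci, 47 were called higher and 17 lower, beside 1297 (11.5%) and 874 (7.78%) of all 11241 tested loci. All 4 tested Y loci were lower. Markers of B cells summed to 3.64 FPKM in the Th17 library, against 77.5, 13.05 and 43.2 FPKM in WT iTreg cells, and 5 of 7 tested B cell markers were called lower (median log2 -2.93). Ms4a1, Pax5 and Cd22 were listed at 0 in the Th17 library, and the dendritic cell marker Itgax was at most 0.0404 FPKM in all 4. Dendritic cell and MHC class II markers summed to 18.9 FPKM in Th17 cells, against 248, 29.2 and 122 FPKM in WT iTreg cells, with 3 of 4 tested called lower (H2-Aa, H2-Eb1 and Cd74). In Th17 cells these 3 were at 0.0594, 0.105 and 2.02 FPKM, so most of the Th17 sum came from other listed members, none of which was called. In WT replicate 2 the same 3 were at 5.67, 2.64 and 16.3 FPKM and made up most of the sum. The myeloid sum was 0.538 FPKM in Th17 cells and between 6.91 and 8.05 FPKM in WT iTreg cells. Both tested myeloid members, Itgam and Fcgr3, were lower, while Lyz2, S100a8 and S100a9 were listed at 0 in all 4 libraries. A marker near 0 in Th17 cells passes the filter only when it is high in WT iTreg cells. These marker counts therefore describe the tested members and not the whole lists. Under the filter were 3 of 10 B cell, 5 of 9 dendritic cell and MHC class II and 7 of 9 myeloid markers in the files. None of the 10 T cell and CD4 markers was called, with sums of 2113 FPKM in Th17 and between 2532 and 2555 FPKM in WT iTreg cells. The part that other cells had in any result was not tested, and the call counts without X and Y loci, and against WT replicate 2 alone, are given with the processing alternatives. The files give no read totals. Reads were estimated by taking the deposited confidence bounds as 2 Poisson standard deviations. Only loci with a single listed start and no failed or low-data status were summed. These partial sums were 12.4 M in the Th17 library and between 18.2 and 19.1 M in the WT iTreg libraries (M, 1e6 reads), so low Th17 values are the less precise ones.

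**Figure D1:**
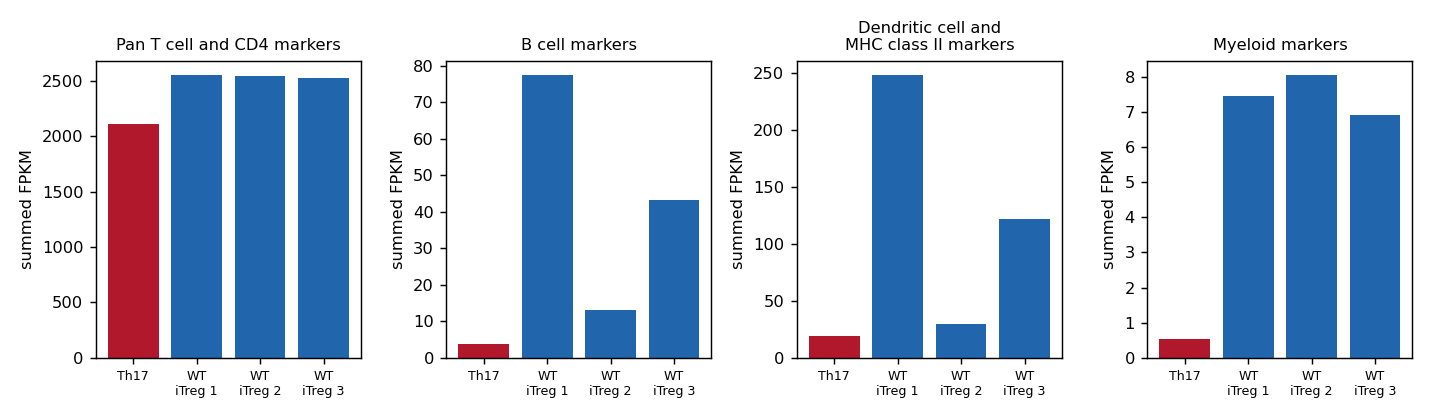
Summed FPKM (vertical axes, from 0) of marker lists in the Th17 library (red) and in each WT iTreg library (blue). B cell and MHC class II sums were lowest in Th17 and varied among the WT iTreg libraries, with WT replicate 1 at 77.5 and 248 FPKM and WT replicate 2 at 13.05 and 29.2 FPKM.

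In all, 1297 loci were called higher in Th17 cells (11.5% of those tested) and 874 were called lower (7.78%). These shares are the background for the list counts below. At 4-fold, 439 were higher and 171 lower. Limma's adjusted p was under 0.05 for 2169 of these 2171 loci, which is 19.3% of all tested, and for 7190 loci of any size. The median difference over all tested loci was 0.03 on the log2 scale. By direction alone, 5326 loci were above and 4955 below all 3 WT libraries, 91.5% of all tested, so direction without size separates little. Just inside the threshold lay Ccdc88a at 1.001 and Pacs1 at -1.0001 (nearest log2 difference), and just outside it Cpne3 at 0.998 and Zcchc7 at -0.998. Spearman's rank coefficient across the 11241 loci, which share annotation and library scaling, was between 0.861 and 0.871 for the Th17 library with each WT iTreg library, against 0.995 to 0.997 among the WT iTreg libraries.

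**Figure D2:**
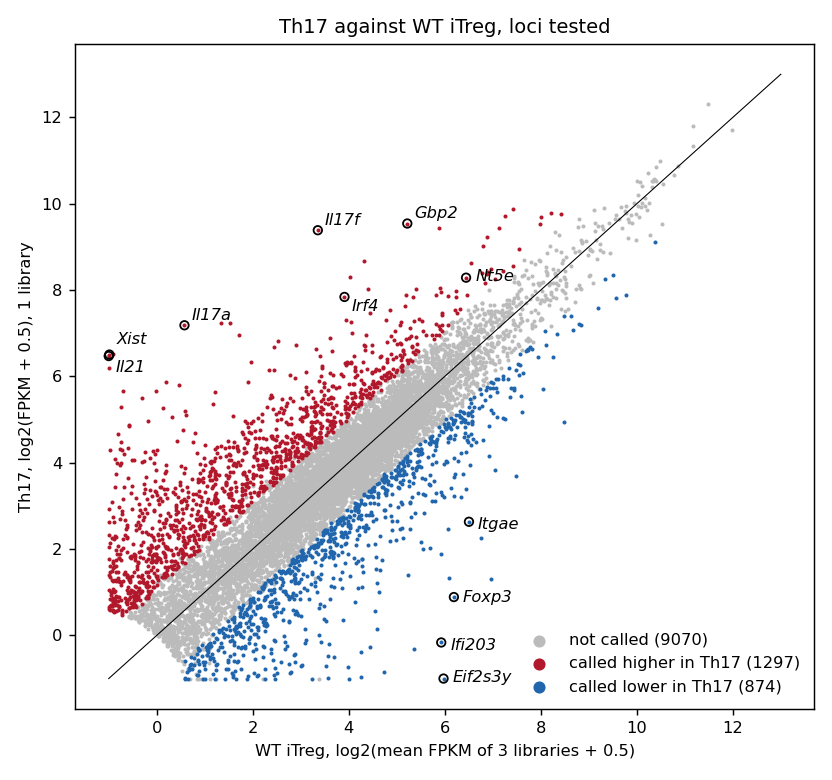
Each tested locus by its log2(FPKM + 0.5) in the Th17 library (vertical axis) and by the mean of 3 WT iTreg libraries (horizontal axis); the line marks equal values. Red loci (1297) were called higher and blue loci (874) lower, with Il17f, Gbp2 and Il21 far above the line and Foxp3, Itgae and Ifi203 far below it.

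The IL-17 cytokines, which give Th17 cells their name, were far higher in the Th17 library. Il17a and Il17f lie next to each other on chromosome 1 (Il17a at chr1:20720986-20724577 and Il17f at chr1:20767230-20774351, mm9). Because they were both high in the Th17 library, and because the nuclear receptor Rora is known to bind AGGTCA half-sites, the 250 bases before their starts and before that of Il23r are shown, with matches to AGGTCA on either strand (TGACCT when on the opposite strand) in capitals. The sequences are RefSeq promoters of GRCm38.p6, read 5′ to 3′ on the strand of each gene. They cover chr1:20730655-20730904 on the plus strand, chr1:20784271-20784520 on the minus strand and chr6:67491856-67492105 on the minus strand.
Il17a promoter: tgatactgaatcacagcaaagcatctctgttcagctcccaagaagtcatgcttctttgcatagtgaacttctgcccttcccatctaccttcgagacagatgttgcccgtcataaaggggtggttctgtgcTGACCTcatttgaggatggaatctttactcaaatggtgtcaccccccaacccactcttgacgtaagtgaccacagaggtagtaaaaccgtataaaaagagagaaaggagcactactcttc
Il17f promoter: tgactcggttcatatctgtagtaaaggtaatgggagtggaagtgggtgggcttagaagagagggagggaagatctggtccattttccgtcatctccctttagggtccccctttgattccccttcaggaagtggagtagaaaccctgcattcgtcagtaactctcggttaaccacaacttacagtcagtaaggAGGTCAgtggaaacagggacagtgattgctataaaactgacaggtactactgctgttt
Il23r promoter: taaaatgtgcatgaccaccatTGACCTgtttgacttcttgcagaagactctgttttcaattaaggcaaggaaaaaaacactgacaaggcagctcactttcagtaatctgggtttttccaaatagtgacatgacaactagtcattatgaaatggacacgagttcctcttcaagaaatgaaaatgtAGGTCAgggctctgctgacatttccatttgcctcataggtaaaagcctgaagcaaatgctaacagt
The match begins 120 bases before the start of Il17a, 58 before that of Il17f, and 229 and 66 before that of Il23r. Not all such genes held a match. Il21, Il1r1 and Lif, which were also called higher, had none in this window, while Ccr6, which was not called, had 1. The motif is short and common. It was found in the same window of 10.6% of the 1013 promoters matched to loci called higher, 12.98% of 678 matched to loci called lower, 10.2% of 8984 matched to tested loci and 13.8% of all 27025 promoters. A match is a description and not a site of binding.

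Il17a was at 145 FPKM in the Th17 library, against 0.72, 1.3 and 0.957 FPKM in WT iTreg libraries. Its difference was 6.62 ± 0.42 on the log2 scale (SE, limma; adjusted p = 2e-05). Il17f was higher still in level, at 668 FPKM in Th17 cells, against 11.4, 9.16 and 8.67 FPKM in WT iTreg cells, a 68.7-fold difference (log2 6.04 ± 0.56; limma adjusted p = 0.00011). Both were present in WT iTreg cells at low level and were listed at 0 in Th1 and naive cells. Il21, a cytokine made by Th17 and follicular helper cells that sustains the Th17 state, was at 88.2 FPKM in the Th17 library and was listed at 0 in all 3 WT iTreg libraries. It was also found in Th1 cells, at 8.78 FPKM. Lif, a cytokine of the IL-6 family, was at 50.0 FPKM in Th17 cells, against 0.0469, 0.111 and 0.181 FPKM in WT iTreg cells, but its level was higher in Th2 cells (96.0 FPKM). Ccl20, the ligand of Ccr6, was at 33.2 FPKM in Th17 cells, against 3.3, 1.63 and 2.63 FPKM in WT iTreg cells. Il10 was low in both, at 2.47 FPKM in Th17 cells and at most 0.056 FPKM in WT iTreg cells. Il22, another cytokine of mature Th17 cells, stayed under the filter, at 0.0291 FPKM in Th17 cells and listed at 0 in WT iTreg cells, and Csf2 was at 0.186 FPKM in Th17 cells, against 1.14, 0.739 and 0.707 FPKM in WT iTreg cells, and was not called.

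Receptors for the cytokines that maintain Th17 cells were also higher. Il1r1, the IL-1 receptor, was at 38.8 FPKM in Th17 cells, against 0.0706, 0.058 and 0.15 FPKM in WT iTreg cells, and no other library exceeded 0.128 FPKM. Il23r, which with Il12rb1 forms the IL-23 receptor, was at 5.65 FPKM in the Th17 library, against 0, 0 and 0.0135 FPKM in WT iTreg cells, and Il12rb1 was at 18.8 FPKM in Th17 cells, against 2.5, 2.37 and 3.34 FPKM in WT iTreg cells. The IL-6 receptor chain Il6ra went the other way, with 38.0 FPKM in Th17 cells, against 105, 103 and 103 FPKM in WT iTreg cells (log2 -1.44 ± 0.07; limma adjusted p = 7e-06). Its signalling partner Il6st (gp130) was at 41.4 FPKM in Th17 cells, against 50.5, 45.7 and 47.1 FPKM in WT iTreg cells, and was not called. The chemokine receptor Ccr6, a common surface marker of Th17 cells, was not higher either, at 17.4 FPKM in Th17 cells, against 26.2, 22.4 and 30.6 FPKM in WT iTreg cells (limma adjusted p = 0.17). Both TGF-β1 cultures held Ccr6 above Th1, Th2 and naive cells, none of which exceeded 0.166 FPKM. Of the 16 listed Th17 cytokines and receptors, 14 were tested, 10 were higher and 1 was lower, with a median log2 difference of 2.62, against 0.03 over all tested loci. A listed gene that is near 0 in iTreg cells passes the filter only when it is high in Th17 cells, so these counts describe the tested members and not the whole list.

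Transcription factors of the Th17 programme were nearly all higher, at 9 of 11 tested with none lower (median log2 2.47). Rora was at 30.8 FPKM in Th17 cells, against 4.15, 3.02 and 3.3 FPKM in WT iTreg cells. Ahr, a ligand-activated factor that is known to boost IL-17 and IL-22 production, was at 49.2 FPKM in Th17 cells, against 1.88, 1.53 and 2.06 FPKM in WT iTreg cells (log2 4.43 ± 0.19). Both were at least 2-fold higher in Th17 than in Th1, Th2 and naive cells as well. Maf, which drives Il21 and Il10, was at 159 FPKM in Th17 cells, against 40.7, 49.1 and 40.5 FPKM in WT iTreg cells, and no other wild-type condition exceeded 2.56 FPKM.

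Other members were also well above WT iTreg cells in 1 or both of the other helper cells. Irf4, which binds DNA together with Batf, was at 229 FPKM in Th17 cells, against 13.2, 12.8 and 17.6 FPKM in WT iTreg cells, and was at 162 FPKM in Th1 and 251 FPKM in Th2 cells. Batf was at 66.7 FPKM in Th17 cells, against 12.7, 11.4 and 10.9 FPKM in WT iTreg cells, and was at 35.6 FPKM in Th1 and 82.4 FPKM in Th2 cells. Hif1a, the hypoxia factor that also promotes glycolysis, was at 259 FPKM in Th17 cells, against 20.5, 20.1 and 21.4 FPKM in WT iTreg cells, and at 201 FPKM in Th1 and 143 FPKM in Th2 cells. Stat3 was 2.15-fold higher (117 FPKM in Th17 cells, against 52.8, 53.6 and 57.1 FPKM in WT iTreg cells), close to the threshold. Runx1, a partner of Foxp3, did not differ in level, at 15.1 FPKM in Th17 cells and between 15.0 and 15.2 FPKM in WT iTreg cells.

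Targets of IL-6 and Stat3 were higher in 10 of 15 tested members, with none lower and a median of 2.14. Of the 10, 3 were also at least 2-fold above Th1, Th2 and naive cells. The list median was 0.60 against Th1, 0.42 against Th2 and 1.96 against naive cells. Socs3, the feedback inhibitor of gp130, was at 106 FPKM in Th17 cells, against 21.6, 23.1 and 20.6 FPKM in WT iTreg cells (log2 2.26 ± 0.15; limma adjusted p = 2.7e-05), and its Th1, Th2 and naive levels lay between 22.6 and 46.3 FPKM. Sbno2 was at 103 FPKM in Th17 cells, against 19.5, 20.5 and 19.2 FPKM in WT iTreg cells. Fosl2, an AP-1 subunit, was at 33.9 FPKM in Th17 cells, against 0.793, 0.843 and 1.41 FPKM in WT iTreg cells, and was higher still in Th1 (51.8 FPKM) and Th2 (40.7 FPKM) cells. Mcl1, Icos, Il6st, Bcl6 and Pim1 were not called. The list shares Stat3 with the transcription factor list and Il21 and Il6st with the cytokine and receptor list.

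**Figure D3:**
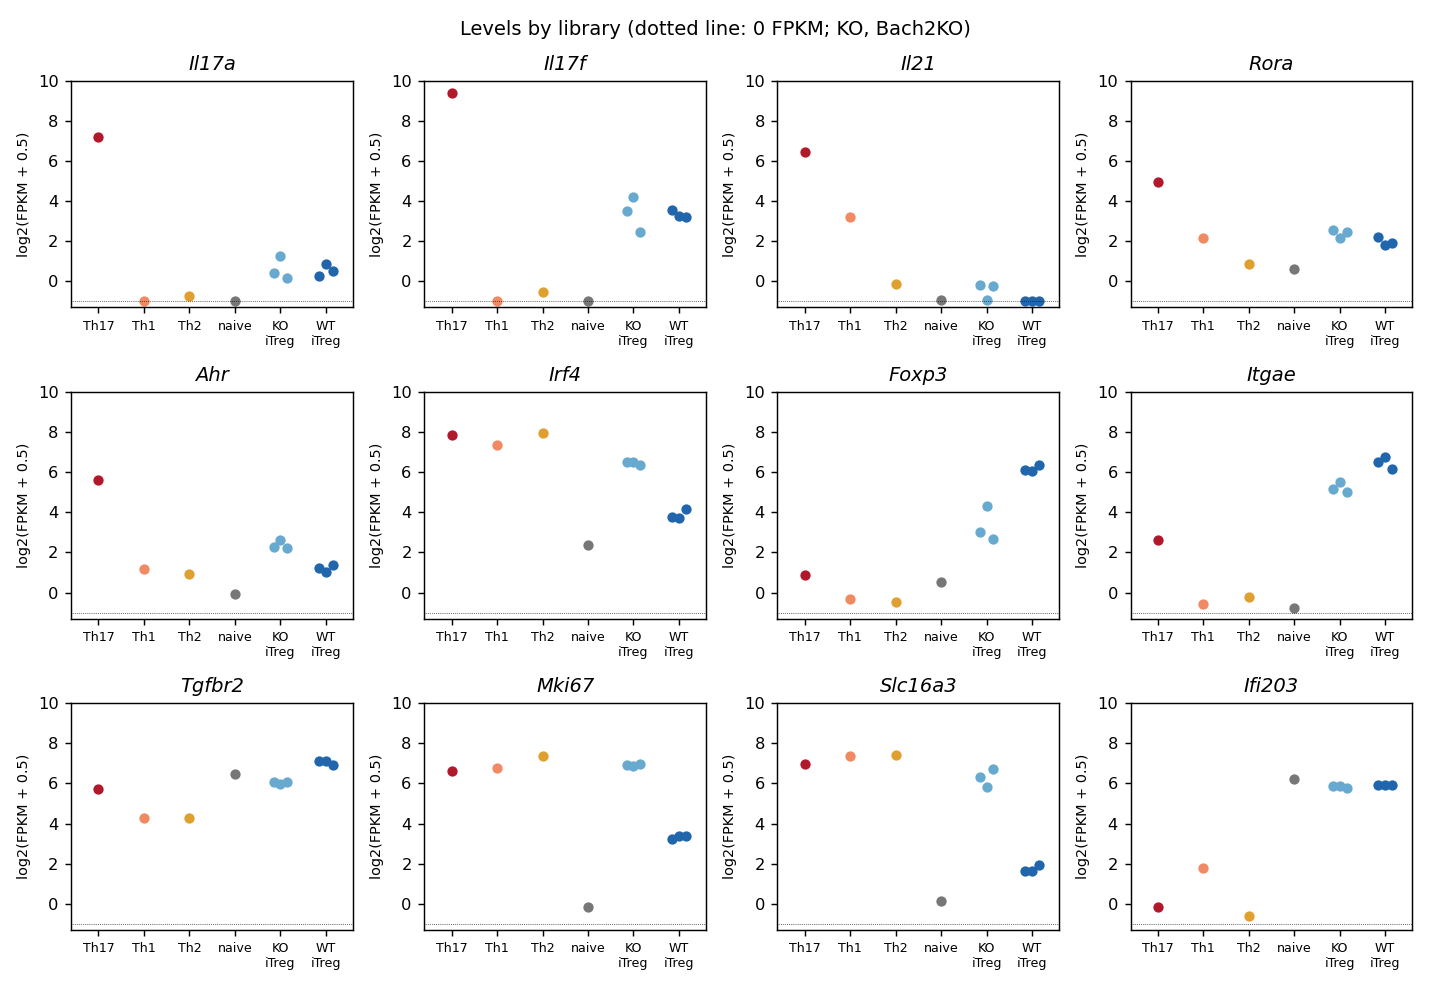
log2(FPKM + 0.5) of 12 genes by library, with Th17, Th1, Th2 and naive cells (1 library each), Bach2KO iTreg and WT iTreg cells (3 each) from left to right. Il17a, Il17f, Rora and Ahr were highest in Th17 cells, Foxp3 and Itgae were highest in WT iTreg cells, and Irf4, Mki67 and Slc16a3 had like levels in Th17, Th1 and Th2 cells.

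The regulatory programme did not move as one. Of 22 tested Treg genes, 6 were higher and 7 lower in Th17 cells, beside 11.5% and 7.78% of all tested loci. The list median was 0.17 and lay between -0.19 and 0.28 against single WT libraries. Foxp3 (chrX:7156802-7172369, mm9) was at 1.35 FPKM in the Th17 library, with a deposited confidence interval of 1.05 to 1.65 FPKM, against 69.6, 66.7 and 81.1 FPKM in WT iTreg libraries, a 53.7-fold lower level (log2 -5.30 ± 0.56; limma adjusted p = 0.0002). Its level in Th17 cells was near that of naive cells (0.952 FPKM). Itgae (CD103), an integrin chain induced by TGF-β, was at 5.7 FPKM in Th17 cells, against 91.1, 108 and 71.2 FPKM in WT iTreg cells (log2 -3.85 ± 0.25). Ikzf4 (Eos), a Foxp3 partner, was at 6.23 FPKM in Th17 cells, against 38.5, 40.2 and 37.8 FPKM in WT iTreg cells. Lrrc32 (GARP), which presents latent TGF-β on the surface of Treg cells, was at 0.925 FPKM in Th17 cells, against 6.4, 6.23 and 8.49 FPKM in WT iTreg cells, and Nrp1 was also lower. Ebi3 and Cd83 were lower as well. Cd83, at 0.132 FPKM in Th17 cells, was at 9.32, 2.54 and 6.77 FPKM in WT iTreg replicates 1, 2 and 3, the same order as the B cell marker sums.

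Several genes commonly used as Treg markers were higher in Th17 cells. Nt5e (CD73), an enzyme that makes adenosine, was at 312 FPKM in Th17 cells, against 82.8, 87.7 and 89.1 FPKM in WT iTreg cells (log2 1.84 ± 0.07; limma adjusted p = 3.1e-06), and was at most 13.7 FPKM in Th1, Th2 and naive cells. Tigit, an inhibitory receptor, was at 14.9 FPKM in Th17 cells, against 0.792, 0.595 and 0.528 FPKM in WT iTreg cells. Ctla4, the CD28 antagonist, was at 305 FPKM in Th17 cells, against 125, 118 and 151 FPKM in WT iTreg cells; it lay at the threshold (nearest log2 difference 1.01) and lost its call under all 3 other scalings. Tnfrsf4, Tnfrsf9 and Il10 completed the 6. Il2ra, the high-affinity IL-2 receptor chain (138 FPKM in Th17 cells, against 72.2, 68.0 and 95.5 FPKM in WT iTreg cells), was above all 3 WT libraries but less than 2-fold above 2 of them. Ikzf2 (Helios) was near 0 in both conditions, at 0.223 FPKM in Th17 cells and at most 0.405 FPKM in WT iTreg cells.

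Components of the TGF-β pathway were lower more often than higher, at 5 and 2 of 18 tested (median -0.52, and -0.09 over all listed genes with no filter). Over all tested loci, 7.78% were lower and 11.5% higher. The receptors Tgfbr1 (16.0 FPKM in Th17 cells, against 34.7, 35.0 and 34.4 FPKM in WT iTreg cells) and Tgfbr2 (53.0 FPKM in Th17 cells, against 139.6, 137 and 122 FPKM in WT iTreg cells) were 2.17-fold and 2.51-fold lower. Smad7, the inhibitory Smad that TGF-β itself induces, was at 27.9 FPKM in Th17 cells, against 66.7, 69.9 and 63.6 FPKM in WT iTreg cells (log2 -1.24 ± 0.10; limma adjusted p = 4.9e-05). Smurf1, a ubiquitin ligase that works with Smad7, and D18Ertd653e (now Ldlrad4), which restrains Smad phosphorylation, were lower too. Fresh naive cells held Smad7 at 74.7 FPKM, above WT iTreg cells, while Th1 and Th2 cells held 3.48 and 3.72 FPKM. Naive levels of Tgfbr1 and Tgfbr2 were 8.11 and 87.7 FPKM, below WT iTreg cells. The ligand Tgfb1 was not called (78.4 FPKM in Th17 cells, against 74.6, 71.0 and 76.1 FPKM in WT iTreg cells). Tgfb3, a TGF-β isoform, was at 6.03 FPKM in Th17 cells and at most 0.122 FPKM in WT iTreg cells, and was higher in Th1 and Th2 cells (24.4 and 23.7 FPKM). Th17 cells had received less TGF-β1, and the part of dose was not tested.

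The IL-2 and Stat5 list was mostly not called: 3 of 17 tested were higher and 2 lower, beside 11.5% and 7.78% of all tested loci. Its median was 0.46. Cish, a Stat5 target, was at 22.01 FPKM in Th17 cells and 193 to 232 FPKM in Bach2KO iTreg cells, against 27.4, 31.8 and 31.7 FPKM in WT iTreg cells, and Th17 and WT iTreg cells differed by less than 2-fold. Il2rb, Il2rg, Stat5a and Stat5b were not called. Jak3, Socs1 and Xbp1 were higher, with Socs1 at 56.6 FPKM in Th17 cells, against 14.8, 15.5 and 16.1 FPKM in WT iTreg cells. Lta, a member of the TNF family, was at 9.42 FPKM in Th17 cells, against 55.1, 50.9 and 60.5 FPKM in WT iTreg cells, and the survival gene Bcl2 was at 6.95 FPKM in Th17 cells, against 26.7, 21.7 and 29.9 FPKM in WT iTreg cells.

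Genes of other helper lineages were split. Of 16 tested Th1 genes, 6 were higher and 3 lower (median 0.59), beside 11.5% and 7.78% of all tested loci. Il12rb2, the inducible IL-12 receptor chain, was at 10.3 FPKM in Th17 cells, against 0.104, 0.141 and 0.135 FPKM in WT iTreg cells, and at 151 FPKM in Th1 cells. Tbx21 (T-bet) was called at a low level, 1.01 FPKM in Th17 cells, against 0.148, 0.0412 and 0.131 FPKM in WT iTreg cells, far below the 35.5 FPKM of Th1 cells, and it lost its call with a pseudocount of 1. Ifng was listed at 0 in Th17 cells and was at most 0.0615 FPKM in WT iTreg cells. Of 21 Th2 genes only 8 were tested, and 4 were higher (Il4ra, Maf, Nfil3 and Ecm1). In Th2 cells these 4 were at 167, 0.959, 158 and 213 FPKM, so Maf was low there, and Nfil3 is also on the IL-6 and Stat3 list. Gata3, the Th2 master factor, was at 5.31 FPKM in Th17 cells, against 8.96, 9.77 and 8.75 FPKM in WT iTreg cells, and was not called. The Th2 cytokines Il4, Il5 and Il13 stayed under the filter.

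Naive and homing genes were lower in 8 and higher in 4 of 22 tested members (median -0.74), beside 7.78% and 11.5% of all tested loci. Klf2, which controls exit from lymph nodes, was at 86.5 FPKM in Th17 cells, against 242, 261 and 235 FPKM in WT iTreg cells, and its target S1pr1 was lower too. Id3, an inhibitor of E proteins, was at 6.65 FPKM in Th17 cells, against 47.4, 44.8 and 48.6 FPKM in WT iTreg cells. Ccr7, Lef1 and Tcf7 were not called, and Tcf7 stood at 719.8 FPKM in Th17 cells, against 585, 605 and 555 FPKM in WT iTreg cells, while Th1 and Th2 cells had 93.0 and 69.7 FPKM. Bach2 itself (chr4:32504410-32673083, mm9) was higher in Th17 cells, with 64.6 FPKM, against 17.9, 17.7 and 17.2 FPKM in WT iTreg cells (log2 1.85 ± 0.11; limma adjusted p = 1.3e-05). It was at 26.2 FPKM in Th1, 24.1 FPKM in Th2 and 23.4 FPKM in naive cells, so the Th17 library held the highest level of the wild-type libraries.

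Trafficking and contact receptors differed in both directions. Of 21 tested chemokine receptors and integrins, 5 were higher and 4 lower (median -0.15), beside 11.5% and 7.78% of all tested loci. The gut-homing receptor Ccr9 and the integrin chains Itgb7 and Itgb3 were lower. Gpr15, a receptor that directs T cells to the colon, was at 57.7 FPKM in Th17 cells, against 0.408, 0.831 and 0.681 FPKM in WT iTreg cells, and was at most 0.135 FPKM in Th1, Th2 and naive cells. Of 20 tested inhibitory and costimulatory receptors, 7 were higher and 4 lower (median 0.13). Lag3, an inhibitory receptor for MHC class II, was at 151 FPKM in Th17 cells, against 1.95, 1.99 and 2.16 FPKM in WT iTreg cells (log2 5.90 ± 0.25; limma adjusted p = 4.3e-06), and was likewise high in Th1 (186 FPKM) and Th2 (162 FPKM) cells. The ligands Cd40lg and Tnfsf8 were lower, with Cd40lg at 7.96 FPKM in Th17 cells, against 39.3, 38.0 and 37.0 FPKM in WT iTreg cells.

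Activation genes were higher than in WT iTreg cells where they were called. Against fresh naive cells, the median of Th17 minus naive was 0.10 for the AP-1, CNC and Maf list and -0.19 for the T cell receptor list. Single members went both ways, with Junb at 737 FPKM and Batf at 18.7 FPKM in naive cells. The AP-1, CNC and Maf factors were higher in 8 of 15 tested members and lower in none (median 1.77, and 0.71 over all listed genes with no filter), among them Junb at 147 FPKM in Th17 cells, against 33.0, 29.9 and 36.3 FPKM in WT iTreg cells. Bach1 and Mafk, relatives and partners of Bach2, were not called. Early genes of the T cell receptor response were higher in 10 of 21 and lower in none (median 1.13). Nr4a1, an immediate early gene, was at 74.2 FPKM in Th17 cells, against 19.1, 10.8 and 21.5 FPKM in WT iTreg cells, and Myc was at 87.1 FPKM in Th17 cells, against 23.6, 22.1 and 27.7 FPKM in WT iTreg cells. Of the 10, 8 lay within 2-fold of both Th1 and Th2 cells, beside 49.6% of all loci called higher and 78.4% of all tested loci.

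Nearly all listed genes of cell division and glycolysis were higher in Th17 cells. Of 28 proliferation genes, 27 were higher in Th17 cells and none was lower (median 2.41), the exception being Ccne1. Mki67, a marker of dividing cells, was at 99.3 FPKM in Th17 cells and 118 to 126 FPKM in Bach2KO iTreg cells, against 8.89, 9.89 and 9.72 FPKM in WT iTreg cells (Th17 minus WT log2 3.32 ± 0.08; limma adjusted p = 8.9e-07). It was at 109.6 FPKM in Th1, 166 FPKM in Th2 and 0.403 FPKM in naive cells. Of the 27, 25 lay within 2-fold of both Th1 and Th2 cells, beside 49.6% of all loci called higher and 78.4% of all tested loci.

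Genes of glycolysis and hypoxia were higher in 24 of 27 tested members and lower in none (median 2.46). Slc16a3, a lactate exporter, was at 124 FPKM in Th17 cells, against 2.58, 2.57 and 3.25 FPKM in WT iTreg cells, and the glycolytic enzyme Tpi1 was at 406 FPKM in Th17 cells, against 18.3, 15.8 and 24.1 FPKM in WT iTreg cells. Th1 and Th2 cells were higher still, with a list median of Th17 minus Th1 of -1.16 and Th17 minus Th2 of -1.27. Cholesterol synthesis followed the same order: 14 of 22 tested were higher than in WT iTreg cells and none lower (median 1.41), while the median was -1.18 against Th1 and -1.28 against Th2 cells. Fdps was at 49.7 FPKM in Th17 cells, against 9.78, 10.0 and 11.1 FPKM in WT iTreg cells, and at 154 FPKM in both Th1 and Th2 cells. Hmgcs1, an enzyme of the mevalonate pathway, was listed at 0 in all 4 libraries, which can be a failed estimate, and was not tested. ATF4 and amino acid genes (4 higher and 0 lower of 18, median 0.49), heat shock genes (3 and 0 of 11, median 0.68) and histone genes (1 and 0 of 10, median 0.75) were mostly not called. Among all tested loci, 11.5% were higher and 7.78% lower.

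**Figure D4:**
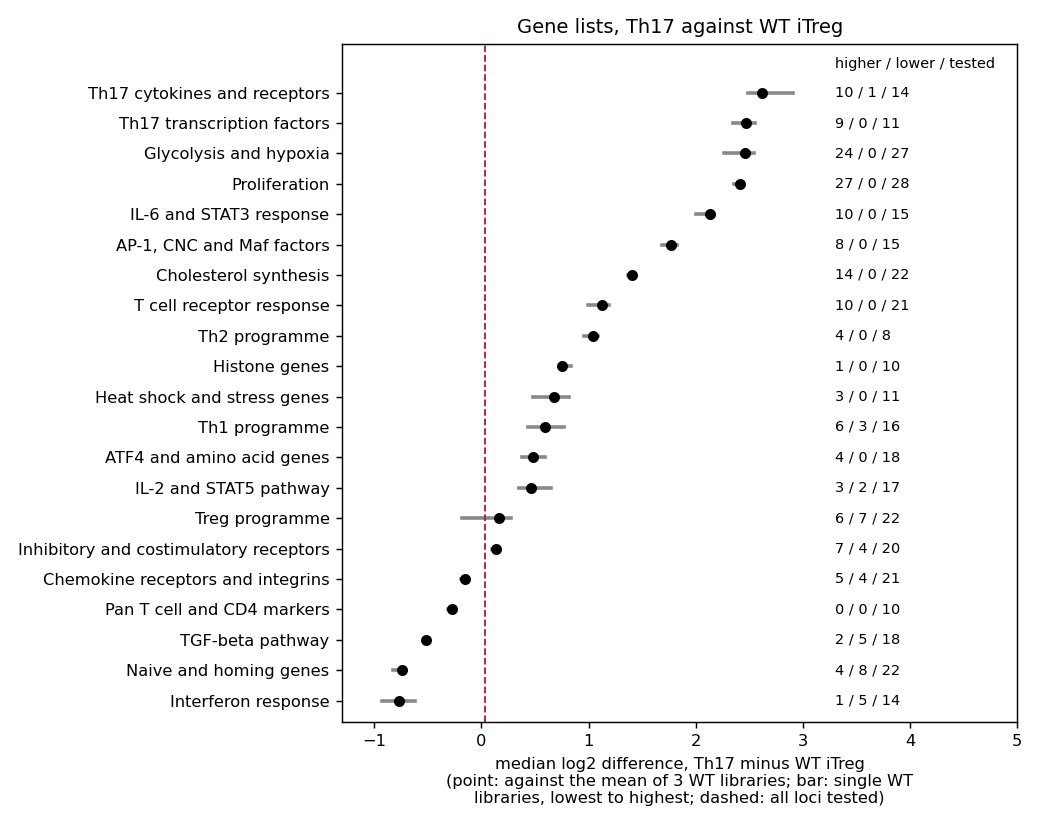
Median log2 difference (Th17 minus WT iTreg) of 21 gene lists (sex-linked genes and markers of other cell types are not plotted): the point is the median against the mean of the 3 WT libraries, the bar spans the medians against single WT libraries, the dashed line is the median of all tested loci (0.03), and counts of higher, lower and tested members stand at the right. The Th17, glycolysis, proliferation and IL-6 and STAT3 lists lie above 2, and the interferon (-0.77), naive and homing (-0.74) and TGF-β (-0.52) lists lie lowest of those plotted.

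Interferon-linked genes were among the loci furthest below WT iTreg cells. Ifi203, a DNA sensor of the interferon-inducible Ifi200 family, was at 0.393 FPKM in Th17 cells, against 60.1, 61.0 and 59.9 FPKM in WT iTreg cells (log2 -6.09 ± 0.07; limma adjusted p = 9.2e-08). Its neighbour and relative Mndal was at 1.99 FPKM in Th17 cells, against 121, 125 and 127 FPKM in WT iTreg cells, and Pydc3, also of that cluster on chromosome 1, was at 0.333 FPKM in Th17 cells, against 21.6, 22.6 and 19.1 FPKM in WT iTreg cells. Relatives in this family have similar sequence, so their single values are uncertain. Naive cells held all 3 at high level (74.0, 112 and 69.6 FPKM). Th1 cells held 2.97, 9.60 and 0.237 FPKM, and Th2 cells held at most 0.781 FPKM of any. In Bach2KO iTreg cells, Ifi203 lay between 53.3 and 57.9 FPKM, Mndal between 78.5 and 91.9 FPKM, and Pydc3 between 6.64 and 6.82 FPKM. Of 14 tested interferon response genes, 5 were lower, including Irf7 (1.99 FPKM in Th17 cells, against 14.2, 13.4 and 13.5 FPKM in WT iTreg cells), and 1 was higher (median -0.77). That 1 was Gbp2, a guanylate-binding protein, at 745 FPKM in Th17 cells, against 36.7, 29.7 and 43.9 FPKM in WT iTreg cells (log2 4.34 ± 0.38), which matched Th1 cells (765 FPKM) more closely than Th2 cells (67.8 FPKM). Its relative Gbp8 was lower, at 0.600 FPKM in Th17 cells, against 23.2, 23.9 and 23.9 FPKM in WT iTreg cells.

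Set beside the other wild-type conditions, called loci held several kinds of pattern. Of the 1297 loci called higher, 643 (49.6%) lay within 2-fold of both Th1 and Th2 cells, against 8816 (78.4%) of all tested loci. Another 131 (10.1%) were at least 2-fold below both Th1 and Th2 cells, against 540 (4.80%) of all tested loci. A further 240 (18.5%) were also at least 2-fold above Th1, Th2 and naive cells, against 379 (3.37%) of all tested loci. Of the 874 called lower, 542 (62.0%) lay within 2-fold of both Th1 and Th2 cells, again under the 78.4% of all tested loci. In 68 (7.78%) the Th17 level was at least 2-fold above both, against 614 (5.46%) of all tested loci. At least 2-fold below Th1, Th2 and naive cells were 58 (6.64%), against 87 (0.774%) of all tested loci. Among the called-higher members, 8 of 10 cytokines and receptors met this stricter rule, as did 0 of 27 proliferation and 0 of 24 glycolysis genes. The calls and these rules use the same single Th17 value, so shares among called loci are bound to differ from those of all tested loci. They do not show that a locus is particular to Th17 cells. Each of these conditions has 1 library, so these counts carry no spread, and all 4 of these libraries differed from WT iTreg cells in Xist.

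**Figure D5:**
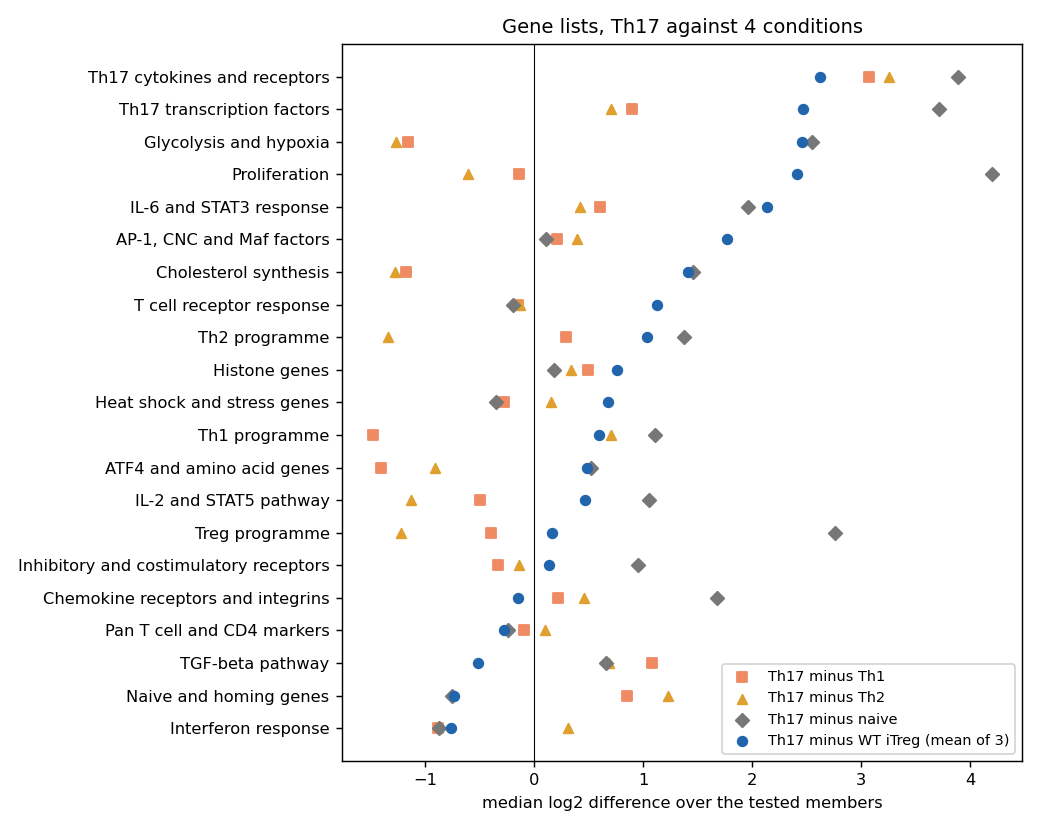
Median log2 difference over the tested members of each list, Th17 minus Th1 (squares), minus Th2 (triangles), minus naive (diamonds) and minus the mean of 3 WT iTreg libraries (circles). Th17 cytokines and receptors lie above 2.6 in every comparison, while proliferation and glycolysis lie above 2 only against naive and WT iTreg cells.

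Bach2 binding was measured in WT iTreg cells only, in 1 ChIP library with 1 input, and not in Th17 cells. A peak lay within 10 kb of the start of 45.9% of the 1270 called-higher loci with a known strand, 48.8% of 850 called-lower loci and 42.3% of 10999 tested loci, so peaks were present near both kinds of call at close to the share of all loci. Scores are the authors' own (10 times the negative log10 of the p-value). At the IL-17 locus, a peak with 80-fold enrichment and a score of 948 had its summit at position -7356 bp from the Il17f start (negative is upstream), and another with 47.1-fold enrichment and a score of 649.7 had its summit 9690 bp downstream of the Il17a start. Il23r had a peak with its summit at -179 bp. Foxp3 had 3 weaker peaks, with scores of 85.5, 60.2 and 55.4 and a deposited FDR between 1.21% and 5.11%.

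Bach2 pairs with small Maf proteins at elements that contain the AP-1-like core TGANTCA, and windows of 101 bases around summits near 4 genes called above are shown with that core in capitals (mm9, plus strand). Ahr (chr12:36217979-36218079), Irf4 (chr13:30845998-30846098) and Gpr15 (chr16:58728603-58728703) were higher in Th17 cells, and Tgfbr2 (chr9:116084341-116084441) was lower.
Ahr peak: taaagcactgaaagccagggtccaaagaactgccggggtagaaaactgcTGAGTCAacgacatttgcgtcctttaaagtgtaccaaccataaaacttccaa
Irf4 peak: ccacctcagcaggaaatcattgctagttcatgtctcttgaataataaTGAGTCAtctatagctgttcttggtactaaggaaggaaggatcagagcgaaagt
Gpr15 peak: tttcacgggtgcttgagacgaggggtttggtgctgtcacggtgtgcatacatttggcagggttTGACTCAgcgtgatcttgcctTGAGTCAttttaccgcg
Tgfbr2 peak: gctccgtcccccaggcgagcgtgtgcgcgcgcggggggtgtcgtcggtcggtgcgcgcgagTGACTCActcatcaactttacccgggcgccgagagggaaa
They were chosen after their sequences were seen, because each holds the core, and Gpr15 holds it at 2 places. The core (which reads the same on both strands) lay in such windows of 33.5% of all 22494 peaks, 32.5% of 881 peaks near called-higher loci, 27.5% of 622 near called-lower loci and 28.6% of 5750 near tested loci. The windows at the Il17a, Il17f, Il23r and Foxp3 peaks with the best score held no match to these letters.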

How the data were processed

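Total RNA (200 ng) went into TruSeq libraries, and uniquely placed 50-bp reads were mapped to mm9 using TopHat, with Cufflinks for FPKM, per the labels' protocols. Their versions: not given in the sources used here. The authors deposited FPKM per locus with confidence bounds. The FPKM were used with the authors' scaling on log2(FPKM + 0.5), which understates differences of low loci. The fold rule was joined by limma 3.58.1 in R 4.3.3 (Th17, WT and Bach2KO iTreg groups, trend, Benjamini-Hochberg, threshold 0.05). Both were run on simulated data in which Th17 values varied like the iTreg libraries. That run cannot speak to variation among Th17 cultures. Loci with a failed or low-data status (91 tested) were kept.

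Members, the 27 gene lists and the named-gene rule were chosen with earlier results of these data known. Named genes are the 12 loci with the largest nearest difference each way (at least 5 FPKM in the higher group), lineage genes fixed by name, and up to 4 called members per list. Repeated symbols took the locus with the highest mean. The lists also held T cell markers, sex-linked genes, CD8, NK and γδ T cell markers (1 of 2 tested higher, Klrd1) and mast cell and erythroid markers (1 of 2 lower, Gata1).

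The peak list was made with MACS 1.4.0beta from 8992019 ChIP and 9999999 input tags at a p-value cutoff of 1e-05, per the file headers, after alignment with Bowtie per the submitters' processing notes. Deposited with it are a tag count, a score (10 times −log10 p), a fold enrichment ratio and an FDR in percent, all made by the authors. Positions are 1-based. A gene start is the 5′ end of the locus in the files, with strand from the GENCODE annotation of the same build. The estimated read sums leave out loci with more than a single listed start or with a failed or low-data status, and cover counting error only. Some genes and 1 sequence are not reported here.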

Additional observations from a re-analysis of the deposited data

How the results depend on the processing

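No paired analysis was possible because the Th17 condition has 1 library, which carries no replicate number. At a 1.5-fold threshold 2205 loci were higher and 1800 lower in Th17 cells, and at 4-fold 439 and 171. With the other planned pseudocounts, filters and scalings, with the WT mean alone and with non-overlapping deposited intervals, loci called higher numbered between 1034 and 1485 and loci called lower between 723 and 1023, and those that also passed limma between 1763 and 2452. Leaving out each WT library in turn gave 1325 to 1426 higher, 911 to 944 lower and 2219 to 2343 with limma. Alternatives added after seeing the data gave 1250 higher and 853 lower without X and Y loci, 1583 and 1030 against WT replicate 2 alone (lowest in B cell and MHC class II markers), and 1290 and 864 without loci of failed or low-data status. The share with a Bach2 peak was 80.6% of higher, 82.9% of lower and 79.2% of all loci within 50 kb, and 32.6%, 34.9% and 29.4% within 10 kb for peaks with an FDR of at most 1%. Of 116 tested named genes, 4 lost a call under the other pseudocounts, filters, scalings or leave-one-out settings (other fold thresholds were not applied gene by gene, and 104 passed the filter of 2 FPKM): Ctla4 under the 3 other scalings, and Tbx21, Usp18 and Ms4a1 with a pseudocount of 1. List medians moved by more than the spread over WT libraries in 71 of 295 recomputations. The Treg median (0.17) was -0.07 without WT replicate 2, -0.02 with no filter and 0.48 with a filter of 2 FPKM. With no filter the TGF-β median was -0.09 (against -0.52), the AP-1, CNC and Maf median 0.71 (against 1.77) and the Th2 and myeloid medians 0, while the histone median was 0.32 with a filter of 2 FPKM (against 0.75). The CD8, NK and γδ T cell median was -0.10 with equal sums (against 1.13). The causes were not tested.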

Other observations

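Several of the loci furthest apart belong to none of the lists. Atp6v0d2, a subunit of the vacuolar proton pump, was at 90.9 FPKM in the Th17 library, against 0.055, 0.028 and 0.0134 FPKM in WT iTreg libraries, and at most 1.64 FPKM in Th1, Th2 and naive cells. Timp1, an inhibitor of metalloproteinases, was at 44.6 FPKM in Th17 cells, against 0.289, 0.34 and 0.282 FPKM in WT iTreg cells, and at 36.0 FPKM in Th1 cells. Prss12, a serine protease, was at 50.0 FPKM in Th17 cells, against 0.395, 0.47 and 0.603 FPKM in WT iTreg cells, and Crispld2 was at 24.9 FPKM in Th17 cells and at most 0.0962 FPKM in WT iTreg cells.

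Among the lowest, Pyroxd2 was at 0.3 FPKM in Th17 cells and between 0.179 and 0.392 FPKM in Bach2KO iTreg cells, against 40.8, 45.2 and 35.4 FPKM in WT iTreg cells, and was at most 2.23 FPKM in Th1, Th2 and naive cells. Nod1, a sensor of bacterial peptidoglycan, was at 0.263 FPKM in Th17 cells, against 19.4, 17.0 and 19.1 FPKM in WT iTreg cells. Rasgrp2, an activator of Rap1, was at 4.29 FPKM in Th17 cells, against 111, 109.8 and 103 FPKM in WT iTreg cells, and at 153 FPKM in naive cells. Tgtp2, an interferon-inducible GTPase, was at 0.00611 FPKM in Th17 cells, against 15.4, 8.81 and 9.96 FPKM in WT iTreg cells, at 1 of 2 loci with that symbol. The other locus was not called (42.1 FPKM in Th17 cells, against a mean of 46.9 FPKM in WT iTreg cells), and reads may not separate the copies.

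Klrd1 (CD94), an NK cell receptor chain, was at 23.1 FPKM in Th17 cells, against 3.73, 4.58 and 4.80 FPKM in WT iTreg cells, and was the 1 called member of the CD8, NK and γδ T cell list, while the NK markers Ncr1 and Klrb1c were at or below 0.171 FPKM in all 4 libraries. Aldoc, an aldolase, was at 36.0 FPKM in Th17 cells, against 0.908, 0.839 and 1.26 FPKM in WT iTreg cells, and at 148 FPKM in Th1 and 187 FPKM in Th2 cells.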
